A study of Homo sapiens with 12 samples.

Results

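H19 and 7 other imprinted genes (IGF2, IGF2R, PHLDA2, MEST, PEG3, PEG10 and GNAS) were followed by RNAseq in SKBR-3, an established breast cancer cell line that has amplified HER2 and is estrogen receptor (ER) negative. These 8 genes were taken by symbol from the 20531 genes listed for each library. H19 was selected on its own readout, its high count and its larger share of the reads after FOXA1 siRNA. Its comparisons of FOXA1 siRNA with NT siRNA are therefore described without a test. Its lapatinib comparisons were tested, though they use libraries that entered that choice. Cells received a non-targeting (NT) siRNA control pool or a FOXA1 siRNA pool for 48 h by the labels, followed by 24 h of DMSO or of lapatinib at 300 nM, an inhibitor of the HER2 and EGFR kinases. Each of the 4 groups (NT with DMSO, NT with lapatinib, FOXA1 siRNA with DMSO, FOXA1 siRNA with lapatinib) held 3 replicates, all from the same cell line, grown in RPMI with serum and without any added gene. The comparisons ask how these transcripts respond to HER2 inhibition, to loss of the forkhead factor FOXA1, and to both.

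Imprinted genes are transcribed mostly from the maternal or mostly from the paternal copy, a choice kept by DNA methylation at imprinting control regions that was set in the germ line. H19 is a maternally expressed long noncoding RNA of chromosome band 11p15, transcribed next to IGF2, a paternally expressed fetal growth factor that shares enhancers with it, and the methylation-sensitive binding of CTCF between them directs those enhancers to one gene or the other. Several imprinted genes act on growth of the fetus and placenta, and loss or gain of imprinting is known in breast and other tumors. The word imprinted is used for all genes followed here and for a wider list below. Some of them, IGF2R among them, are imprinted mainly in other species or tissues. The counts used here are sums per gene over both parental copies, so they measure the amount of transcript and hold no information on which copy was transcribed. Imprinting in SKBR-3 cells was therefore not measured for any gene.

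In GENCODE 44 (GRCh38), H19 (Entrez 283120) lies on the minus strand of chromosome 11 from 1995166 to 2004552, IGF2 (Entrez 3481) on the same strand from 2129112 to 2158391, and PHLDA2 (Entrez 7262) on the same strand from 2928273 to 2929420. MEST (Entrez 4232, 130486171 to 130506465) and PEG10 (Entrez 23089, 94656325 to 94669695) lie on the plus strand of chromosome 7. IGF2R (Entrez 3482) lies on the plus strand of chromosome 6 from 159969082 to 160113507, PEG3 (Entrez 5178) on the minus strand of chromosome 19 from 56810077 to 56840728, and GNAS (Entrez 2778) on the plus strand of chromosome 20 from 58839718 to 58911192. H19 is annotated as a lncRNA and the other 7 as protein coding.

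H19 and MEST carry microRNAs, which are cut from the host RNA and were not measured in these poly(A) libraries. The RefSeq mature sequences (GRCh38.p14) are printed because they are the known products of H19, on the minus strand at chr11:1996800-1996822 and chr11:1996768-1996787, and of MEST, on the plus strand at chr7:130496126-130496148 and chr7:130496162-130496183. Capitals mark the seed, bases 2 to 8, and no pair of the 4 shares a seed.
hsa-miR-675-5p (H19): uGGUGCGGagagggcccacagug
hsa-miR-675-3p (H19): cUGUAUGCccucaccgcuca
hsa-miR-335-5p (MEST): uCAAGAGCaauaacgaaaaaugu
hsa-miR-335-3p (MEST): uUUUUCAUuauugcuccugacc

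RefSeq promoter windows (250 bases before to 50 after a start site, GRCh38.p14) were at hand for 4 of the 8 genes, with 1 window each for H19 and IGF2R, 5 for MEST and 6 for GNAS. The forkhead motif named in the study, searched as GTAAACA or GTCAACA on both strands, was in 0 of these 13 windows and in 5.62% of all 35116 windows. The E-box CACGTG, which reads the same on both strands, was in 2 of the 13, those of IGF2R and of 1 GNAS start, and in 7.26% of all windows. The windows of H19 and IGF2R are shown because both genes had higher counts after FOXA1 siRNA. In the IGF2R window capitals mark 3 E-boxes, and the H19 window holds neither motif. These letters describe the windows only and say nothing of FOXA1 binding there or elsewhere.
H19, chr11:2001217-2001516, minus strand: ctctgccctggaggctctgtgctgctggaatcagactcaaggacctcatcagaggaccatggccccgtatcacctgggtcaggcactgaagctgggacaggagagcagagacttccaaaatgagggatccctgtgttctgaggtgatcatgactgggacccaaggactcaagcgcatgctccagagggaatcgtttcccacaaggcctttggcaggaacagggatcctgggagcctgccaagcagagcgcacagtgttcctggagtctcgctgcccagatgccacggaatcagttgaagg
IGF2R, chr6:159968832-159969131, plus strand: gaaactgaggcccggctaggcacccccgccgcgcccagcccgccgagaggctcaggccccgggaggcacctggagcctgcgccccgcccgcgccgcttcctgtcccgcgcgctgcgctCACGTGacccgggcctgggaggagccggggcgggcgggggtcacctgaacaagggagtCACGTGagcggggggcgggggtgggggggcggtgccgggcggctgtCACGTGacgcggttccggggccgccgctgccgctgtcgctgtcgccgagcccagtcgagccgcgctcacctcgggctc

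The expected counts of the 12 libraries summed to between 25749578 and 32271850. FOXA1 itself was between 8308 and 13177 normalized counts (counts scaled by TMM to the average depth) in the 6 NT libraries and between 1160 and 2384 in the 6 FOXA1 siRNA libraries. The labelled cell line was checked against its markers: ERBB2, KRT8, KRT18 and KRT19 averaged 4077, 3513, 2329 and 4619 TPM (the deposited level per transcript length), while ESR1 averaged 0.388 TPM and PGR stayed at or under 3 counts in every library. Of 10 markers of blood, endothelial, stromal and liver cells, 6 were under 10 counts in every library. The 10 summed to 22.6 to 32.0 TPM with NT and DMSO, 33.4 to 43.7 with NT and lapatinib, 29.3 to 36.9 with FOXA1 siRNA and DMSO and 38.6 to 49.4 with both, mostly from CD68, and their part in the results was not tested. Replicate 2 stood apart from the others in each of the 4 groups, with a chi-square per degree of freedom of 12.7 to 18.5 against replicates 1 and 3, which were at 3.75 to 5.94 against each other. Leaving replicate 2 out of every group, an alternative added after seeing the data, kept every call of a member made with all libraries and no block, and the calls that this added stand with PEG10 and GNAS. No source says whether the replicates were separate cultures, so the p-values measure the spread between these samples, which may be technical.

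The 8 genes covered almost the whole range of expression in SKBR-3 cells. Per transcript length, H19 was at 6205 to 19140 TPM over the 12 libraries and GNAS at 2035 to 2465 TPM. MEST was at 155 to 238 TPM, PEG10 at 19.5 to 124 TPM, PHLDA2 at 4.94 to 123 TPM and IGF2R at 56.6 to 83.5 TPM. IGF2 (0.1 to 0.27 TPM) and PEG3 (0 to 0.02 TPM) were close to absent. With NT siRNA and DMSO the order was H19, GNAS, MEST, PEG10, PHLDA2, IGF2R, IGF2 and PEG3. In that group the TPM of PEG10 (80.6 to 124) and PHLDA2 (68.0 to 123) overlapped and no other neighbors in the order did. PEG3 did not reach 10 counts in any library and was not tested.

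**Figure D1:**
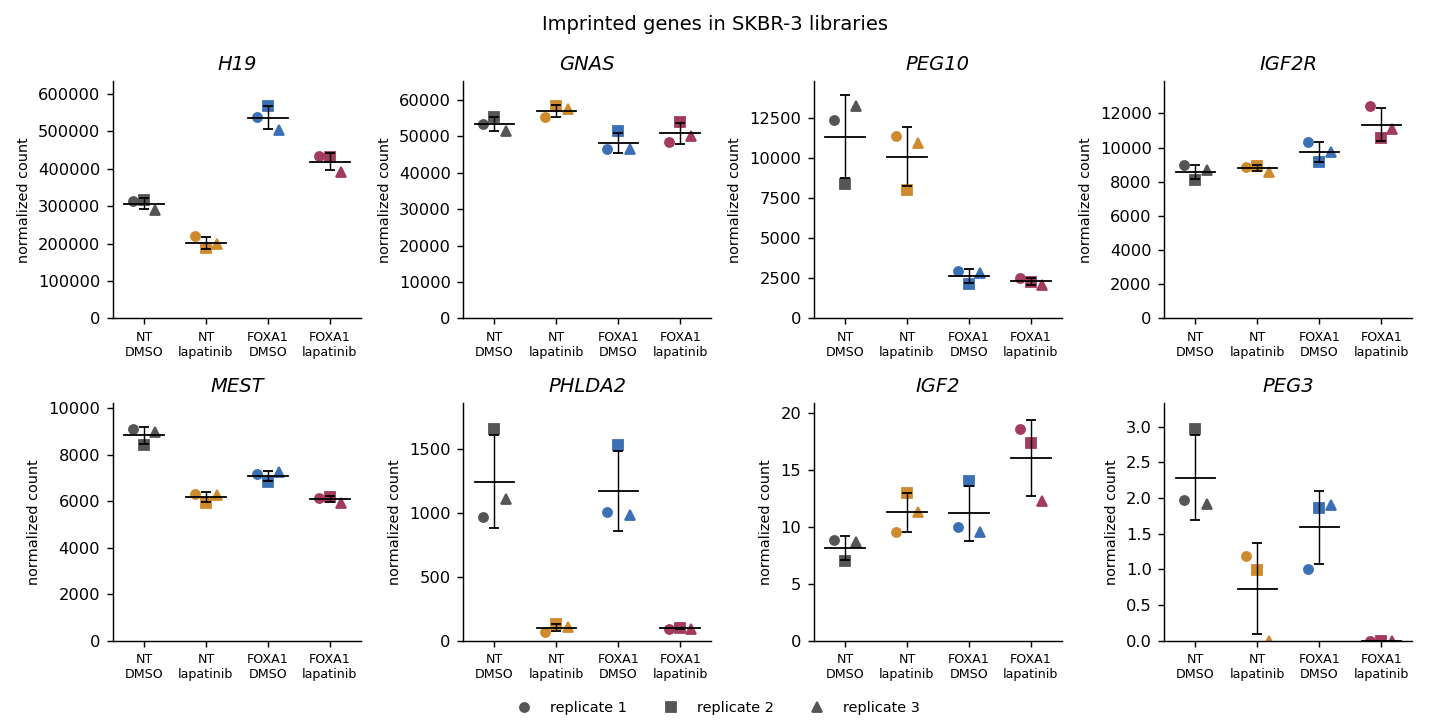
Normalized counts (vertical axes from 0, 1 scale per gene) of the 8 imprinted genes in each library of the 4 groups, named by siRNA and drug on the horizontal axes. Marker shapes give the replicate number, horizontal lines the mean and bars the SD of 3 replicates. PHLDA2 is at 69.0 to 127.2 in the lapatinib groups, PEG10 is at 2119 to 2982 in the FOXA1 siRNA groups, and the 4 groups of H19 do not overlap.

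Lapatinib lowered H19, PHLDA2 and MEST, both with NT and with FOXA1 siRNA, while FOXA1 siRNA lowered PEG10 and raised IGF2R in both drug conditions. Calls were made by edgeR's quasi-likelihood test at a Benjamini-Hochberg adjusted p under 0.05 over all genes tested, with no fold minimum. After lapatinib with NT siRNA, 3 of the 8 members (7 tested) were called lower, beside 29.2% of all genes tested. None was called higher, against 30.5% of all genes. DESeq2 also called 0 higher, and 1 member (GNAS) was higher at an unadjusted p under 0.05. After lapatinib with FOXA1 siRNA, 1 member was called higher (background 29%) and 3 were called lower (background 29.1%). The 3 include H19, which was chosen with the values of these libraries known. Of the 7 members other than H19 (6 tested), FOXA1 siRNA in DMSO gave 1 higher call (background 21.9%) and 2 lower calls (background 21.3%). FOXA1 siRNA in lapatinib gave 1 higher call (background 22.7%) and 2 lower calls (background 22.2%). With only 8 genes, these shares do not set the members apart from all genes. The interaction asks whether the lapatinib response differs between FOXA1-depleted and NT cells. Of the 7 members other than H19 (6 tested), 1 was called positive (background 3.99%) and 0 negative (background 3.2%). There were 0 negative also by DESeq2 and at an unadjusted p under 0.05.

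**Figure D2:**
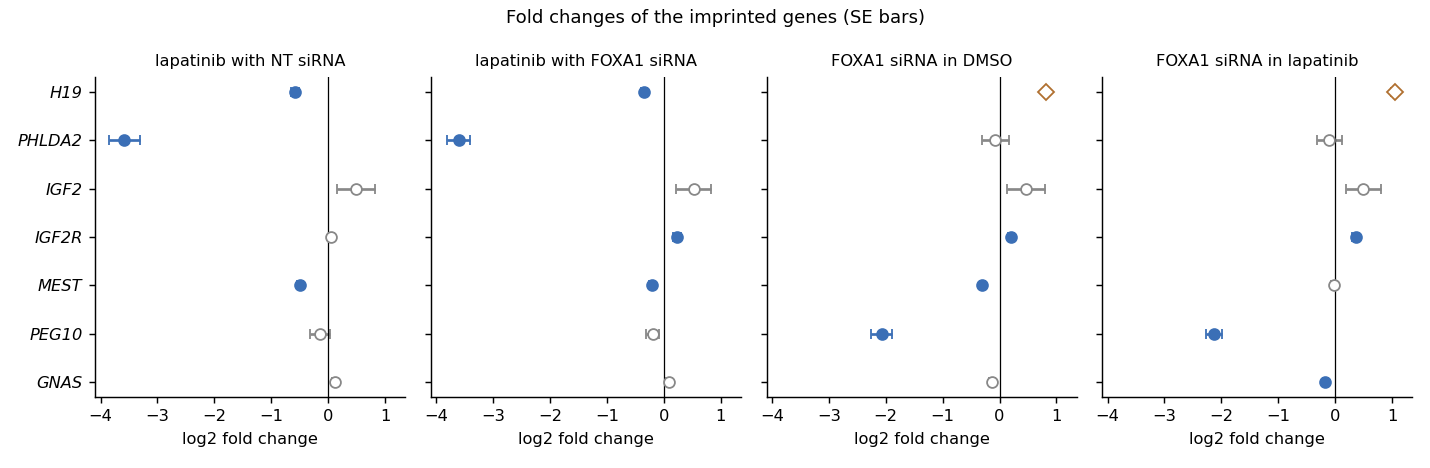
Log2 fold changes (horizontal axes) with SE bars from edgeR for the 7 tested members in the 4 comparisons, 1 panel each. Filled blue circles passed an adjusted p of 0.05, open gray circles did not, and open brown diamonds are H19 after FOXA1 siRNA, given without a test. PHLDA2 lies near -3.6 in both lapatinib panels and PEG10 near -2.1 in both siRNA panels.

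H19 was among the most abundant transcripts of these cells in every group. Its normalized counts were 314559, 316796 and 290333 with NT and DMSO (replicates 1 to 3) and 219725, 188469 and 199332 with NT and lapatinib. FOXA1 siRNA gave 539609, 566805 and 504711 in DMSO and 433878, 431971 and 392311 in lapatinib. The 4 groups did not overlap, in the order NT with lapatinib, NT with DMSO, FOXA1 siRNA with lapatinib and FOXA1 siRNA with DMSO. Among all genes H19 held rank 1 or 2 by count in the NT libraries with DMSO, rank 4 with NT and lapatinib, and rank 1 in each of the 6 FOXA1 siRNA libraries. It held 1.02% ± 0.053 (SD, n = 3) of all counts with NT and DMSO and 0.662% ± 0.051 with NT and lapatinib. With FOXA1 siRNA it held 1.78% ± 0.10 in DMSO and 1.36% ± 0.074 in lapatinib.

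Lapatinib lowered H19 to 0.669 of the DMSO level with NT siRNA (log2 fold change -0.58 ± 0.07 SE, adjusted p = 0.000131 by edgeR). With FOXA1 siRNA it lowered H19 to 0.785 of the DMSO level (log2 fold change -0.35 ± 0.05 SE, adjusted p = 0.000706). H19 was chosen partly for its high values in these FOXA1 siRNA libraries, so this p-value is not independent of the choice. The difference between same-numbered libraries was -0.75 to -0.52 with NT and -0.39 to -0.32 with FOXA1 siRNA on the log2 scale of normalized counts + 1. As a description of the contrast that chose it, H19 was 1.76-fold higher after FOXA1 siRNA in DMSO (log2 fold change 0.82 ± 0.05 SE) and 2.06-fold higher in lapatinib (1.04 ± 0.07 SE). The difference between its lapatinib responses, 0.24 ± 0.09 (SE) on the log2 scale, has the siRNA contrasts in it and was likewise not tested. Leaving H19 out of the library sizes changed no call of the other members.

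The 5 genes whose log2(normalized count + 1) followed H19 most closely over the 12 libraries, among 10811 genes with a mean of at least 100 normalized counts, were PAM (Pearson r = 0.993), TRMT2A (0.992), M6PR (0.992), RRN3 (0.991) and C22orf9 (0.990). The 12 points are 4 groups of 3 libraries and are not independent, so the correlations are a description and carry no p. M6PR, the cation-dependent mannose 6-phosphate receptor, averaged 4586 ± 124 (SD, n = 3) normalized counts with NT and DMSO and 3695 ± 73.3 with NT and lapatinib. With FOXA1 siRNA it averaged 6150 ± 83.9 in DMSO and 5540 ± 98.8 in lapatinib. The 5 other members above that mean, which excludes IGF2 and PEG3, did not follow H19 in this way, with r between -0.83 for GNAS and 0.56 for IGF2R.

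IGF2, the growth factor encoded beside H19, was barely detected. Its expected counts were 9, 7 and 9 with NT and DMSO and 8, 13 and 11 with NT and lapatinib. They were 10, 15 and 10 with FOXA1 siRNA and DMSO and 18, 18 and 12 with FOXA1 siRNA and lapatinib. The log2 fold changes lay between 0.46 and 0.53 in the 4 comparisons with SEs of 0.31 to 0.34, and none passed the test (adjusted p = 0.176 to 0.305 by edgeR). At 7 to 18 counts per library, changes of this size were not detectable. The overlapping read-through locus INS-IGF2 held 0 to 2 counts, and reads could be split between it and IGF2.

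IGF2R, the cation-independent mannose 6-phosphate receptor that carries lysosomal enzymes and removes IGF2 from the cell surface, was well expressed and rose modestly after FOXA1 siRNA. Its normalized counts were 8972, 8135 and 8662 with NT and DMSO and 8868, 8912 and 8589 with NT and lapatinib. The FOXA1 siRNA libraries held 10304, 9181 and 9755 in DMSO and 12410, 10570 and 11084 in lapatinib. The 2 NT groups overlapped, and each FOXA1 siRNA group was above the NT group of the same drug. IGF2R rose 1.15-fold after FOXA1 siRNA in DMSO (log2 fold change 0.20 ± 0.05 SE, adjusted p = 0.0176) and 1.28-fold in lapatinib (0.36 ± 0.06 SE, adjusted p = 0.00208).

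Lapatinib left IGF2R at a log2 fold change of 0.06 ± 0.05 (SE, adjusted p = 0.353) with NT siRNA and raised it by 0.23 ± 0.07 (SE, adjusted p = 0.0191) with FOXA1 siRNA. The interaction, which compares the 2 responses, was 0.19 ± 0.09 (SE, adjusted p = 0.235), and under the replicate block it was 0.18 with an adjusted p of 0.0386. The call in DMSO was lost without NT replicate 3 or FOXA1 siRNA replicate 1 or 3 (adjusted p = 0.0514, 0.0753 and 0.0555), and the lapatinib call without FOXA1 siRNA DMSO replicate 2 or 3 (0.0560 and 0.0509).

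Around IGF2 and IGF2R, 20 further genes of the IGF axis (ligands, receptors, binding proteins and adaptors) were listed, of which 12 to 14 passed the count filter in a comparison. With NT siRNA, lapatinib raised 5 and lowered 5 of 14, or 35.7% each, near the 30.5% and 29.2% of all genes. The median log2 fold change was -0.14 beside 0.03 over all genes. The receptors INSR and IGF1R rose by 1.92 ± 0.18 and 0.91 ± 0.10 (log2 fold change ± SE, adjusted p = 3.87e-05 and 8.44e-05). IGFBP2, a secreted binding protein, fell by 0.63 on the log2 scale (SE 0.10, adjusted p = 0.000792). After FOXA1 siRNA in DMSO 2 of 13 were higher and 4 lower (15.4% and 30.8%, beside 21.9% and 21.3% of all genes), with a median of -0.16 beside -0.01 over all genes. With the replicate block 3 were higher and 4 lower. IGFBP5 fell by 1.13 (SE 0.13, adjusted p = 0.000367). IGF1R was also lower, at -0.49 ± 0.11 (SE, adjusted p = 0.00985), while INSR was higher, at 0.84 ± 0.11 (SE, adjusted p = 0.000591). These calls held in all 15 alternative fits at the same threshold. In lapatinib INSR was at -0.02 ± 0.16 after FOXA1 siRNA (SE, adjusted p = 0.929). Its interaction was -0.85 ± 0.21 (SE, adjusted p = 0.0334), a call made in 14 of 20 alternative fits. Lapatinib with FOXA1 siRNA raised 4 and lowered 4 of 12 (33.3% each, beside 29% and 29.1%), and with the block 5 and 4. FOXA1 siRNA in lapatinib raised 1 and lowered 5 of 12 (8.33% and 41.7%, beside 22.7% and 22.2%), and with the block 2 and 6.

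PHLDA2 was the member with the largest change. It encodes a small pleckstrin-homology domain protein, is expressed from the maternal copy and restrains placental growth. Its normalized counts were 963.4, 1658 and 1111 with NT and DMSO and 69.0, 127.2 and 108.8 with NT and lapatinib. The FOXA1 siRNA libraries held 1004, 1533 and 980.4 in DMSO, against 94.0, 101.9 and 91.1 in lapatinib. Every lapatinib library was far below every DMSO library, and within a drug the NT and FOXA1 siRNA libraries overlapped. Lapatinib reduced PHLDA2 by 12-fold with NT siRNA (log2 fold change -3.58 ± 0.27 SE, adjusted p = 1.43e-05) and by 12.2-fold with FOXA1 siRNA (-3.60 ± 0.20 SE, adjusted p = 5.07e-06). After FOXA1 siRNA its log2 fold change was -0.07 ± 0.24 (SE, adjusted p = 0.832) in DMSO and -0.10 ± 0.21 (SE, adjusted p = 0.729) in lapatinib, with a sign that turned when single libraries were left out. The interaction was -0.02 ± 0.37 (SE, adjusted p = 0.991), an estimate with a wide error that does not show the 2 responses to be alike. PHLDA2 was highest in replicate 2 in each of the 4 groups.

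PEG10, a paternally expressed gene derived from a retrotransposon that still frameshifts to make a Gag-Pol-like protein and is needed in the placenta, fell after FOXA1 siRNA. Its normalized counts were 12407, 8376 and 13228 with NT and DMSO and 11369, 8017 and 10922 with NT and lapatinib. The FOXA1 siRNA libraries held 2982, 2172 and 2862 in DMSO and 2543, 2292 and 2119 in lapatinib. All 6 NT libraries, at 8017 or more, were far above all 6 FOXA1 siRNA libraries, at 2982 or less. PEG10 was 4.2-fold lower after FOXA1 siRNA in DMSO (log2 fold change -2.07 ± 0.18 SE, adjusted p = 9.64e-05) and 4.38-fold lower in lapatinib (-2.13 ± 0.14 SE, adjusted p = 1.62e-05). Replicate 1 lay above the group mean in all 4 groups and replicate 2 below it.

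The lapatinib groups of PEG10 overlapped the DMSO groups. Its log2 fold change after lapatinib was -0.14 ± 0.18 (SE, adjusted p = 0.518) with NT siRNA and -0.20 ± 0.12 (SE, adjusted p = 0.191) with FOXA1 siRNA. Under the replicate block the first was -0.13 with an adjusted p of 0.0324 and the second -0.19 with an adjusted p of 0.0657. Without FOXA1 siRNA DMSO replicate 2 the second was -0.33 with an adjusted p of 0.00797. Without replicate 2 in any group both passed the test, at -0.19 (adjusted p = 0.00351) and -0.32 (adjusted p = 0.00953). The interaction was -0.04 ± 0.25 (SE, adjusted p = 0.962). SGCE, the imprinted gene that starts beside PEG10 on the other strand, gave -0.19 ± 0.07 (SE, adjusted p = 0.0552) after FOXA1 siRNA in DMSO and -0.18 ± 0.08 (SE, adjusted p = 0.0957) in lapatinib. With the replicate block both passed the test (adjusted p = 0.00601 and 0.00467). SGCE is named here for its position, outside the rule for named genes.

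MEST, a paternally expressed member of the alpha/beta hydrolase family and host of miR-335 (sequences above), fell with lapatinib and with FOXA1 siRNA in DMSO. Its normalized counts were 9117, 8417 and 8975 with NT and DMSO and 6305, 5934 and 6272 with NT and lapatinib. The FOXA1 siRNA libraries held 7167, 6824 and 7251 in DMSO and 6143, 6164 and 5925 in lapatinib. NT with DMSO was highest, FOXA1 siRNA with DMSO lay between, and the 2 lapatinib groups overlapped at the bottom. Lapatinib lowered MEST by 0.50 on the log2 scale with NT siRNA (SE 0.05, adjusted p = 6.51e-05) and by 0.21 with FOXA1 siRNA (SE 0.04, adjusted p = 0.00285). FOXA1 siRNA lowered it by 0.31 in DMSO (SE 0.04, adjusted p = 0.000906), and in lapatinib its log2 fold change was -0.03 ± 0.05 (SE, adjusted p = 0.635). The interaction was tested for 6 members, without H19. With all libraries and no block MEST was the only one called, at 0.30 ± 0.06 (SE, adjusted p = 0.0150). It kept that call in all 20 alternative fits at the same threshold, and with the replicate block the adjusted p was 0.00106. COPG2 overlaps the end of MEST on the other strand, and reads there cannot be told apart where the counting did not use strand.

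GNAS encodes the stimulatory G protein alpha subunit, and its count adds transcripts that are expressed from both copies to others that are imprinted. Its normalized counts were 53330, 55444 and 51607 with NT and DMSO and 55244, 58240 and 57652 with NT and lapatinib. The FOXA1 siRNA libraries held 46687, 51443 and 46487 in DMSO and 48402, 53943 and 50248 in lapatinib. All 12 libraries lay within a narrow band, with the FOXA1 siRNA groups below the NT group of the same drug. GNAS was lower after FOXA1 siRNA in lapatinib (log2 fold change -0.17 ± 0.05 SE, adjusted p = 0.0206), a call lost without NT lapatinib replicate 3 or FOXA1 siRNA lapatinib replicate 1 or 3 (adjusted p = 0.0647, 0.0712 and 0.0717). In DMSO its log2 fold change was -0.14 ± 0.05 (SE, adjusted p = 0.0688).

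After lapatinib GNAS was at 0.11 ± 0.05 (SE, adjusted p = 0.0622) with NT siRNA and at 0.09 ± 0.05 (SE, adjusted p = 0.211) with FOXA1 siRNA. Under the replicate block these 3 uncalled changes passed the test at nearly the same size. The adjusted p was then 0.000978 for FOXA1 siRNA in DMSO, 0.0346 for lapatinib with NT siRNA and 0.0215 for lapatinib with FOXA1 siRNA. Without replicate 2 in any group the first of these passed the test at -0.16 (adjusted p = 0.00216), the second at 0.11 (adjusted p = 0.0184), and the third was at 0.09 (adjusted p = 0.0615). The noncoding antisense gene GNASAS, at 15 to 49 counts, fell after lapatinib with both siRNAs (log2 fold changes -1.0032 and -0.89, adjusted p = 0.0119 and 0.00757). Reads of GNAS and GNASAS cannot be told apart where the counting did not use strand, which no source states.

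PEG3, a zinc finger gene expressed from the paternal copy, had 1.62, 3 and 2 counts with NT and DMSO, 1, 1 and 0 with NT and lapatinib, and 1, 2 and 2 with FOXA1 siRNA and DMSO. It had 0 counts in all 3 libraries with FOXA1 siRNA and lapatinib. At or under 3 counts in every library, no difference was detectable at this depth. ZIM2, which shares its first exons with PEG3, held at most 0.38 counts.

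A wider list of 48 other genes, reported as imprinted in some tissue or species, held calls in both directions in each comparison of 2 groups. Of these, 21 were under 10 counts in every library, among them DLK1, MEG3 and SNURF, which were listed at 0, and 27 were tested. Lapatinib with NT siRNA raised 4 and lowered 6 of the 27, or 14.8% and 22.2% beside 30.5% and 29.2% of all genes (median log2 fold change -0.05, beside 0.03). With the replicate block 6 were raised and 6 lowered, and without replicate 2 in any group 8 and 7. Lapatinib with FOXA1 siRNA raised 5 and lowered 8 (18.5% and 29.6%, beside 29% and 29.1% of all genes, median -0.04 beside 0.01), and with the block 5 and 9. FOXA1 siRNA in DMSO raised 10 and lowered 3, or 37% and 11.1% beside 21.9% and 21.3% of all genes (median 0.08, beside -0.01). With the block it raised 11 and lowered 5, and without replicate 2 it raised 13 and lowered 5. FOXA1 siRNA in lapatinib raised 6 and lowered 4 (22.2% and 14.8%, beside 22.7% and 22.2%, median -0.02 beside -0.01), and with the block 10 and 8.

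By name, CPA4, a carboxypeptidase gene in the MEST region of chromosome 7, rose most. It averaged 428 ± 28.8 (SD, n = 3) normalized counts with NT and DMSO and 3550 ± 275 with FOXA1 siRNA and DMSO, a log2 fold change of 3.06 ± 0.08 (SE, adjusted p = 1.93e-06). In lapatinib the change was 2.99 ± 0.17 (SE, adjusted p = 1.06e-05). DDC, the aromatic L-amino acid decarboxylase, rose by 1.69 ± 0.38 in DMSO (SE, adjusted p = 0.00826) and by 2.65 ± 0.39 in lapatinib (SE, adjusted p = 0.000922), from low NT means of 61.8 ± 28.0 and 22.1 ± 9.88 (SD, n = 3) normalized counts. ANO1, a calcium-activated chloride channel, rose by 1.01 ± 0.08 after lapatinib with NT siRNA (SE, adjusted p = 2.28e-05) and by 0.39 ± 0.05 with FOXA1 siRNA (SE, adjusted p = 0.000169). Its interaction was -0.60 ± 0.10 (SE, adjusted p = 0.00368), the only one called among the 27 (with the replicate block, 2 were called positive and 4 negative). SLC22A18, a transporter gene beside PHLDA2, fell after lapatinib by 0.78 (SE 0.12, adjusted p = 0.000654) and 1.22 (SE 0.08, adjusted p = 1.22e-05) with the respective siRNAs.

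**Figure D3:**
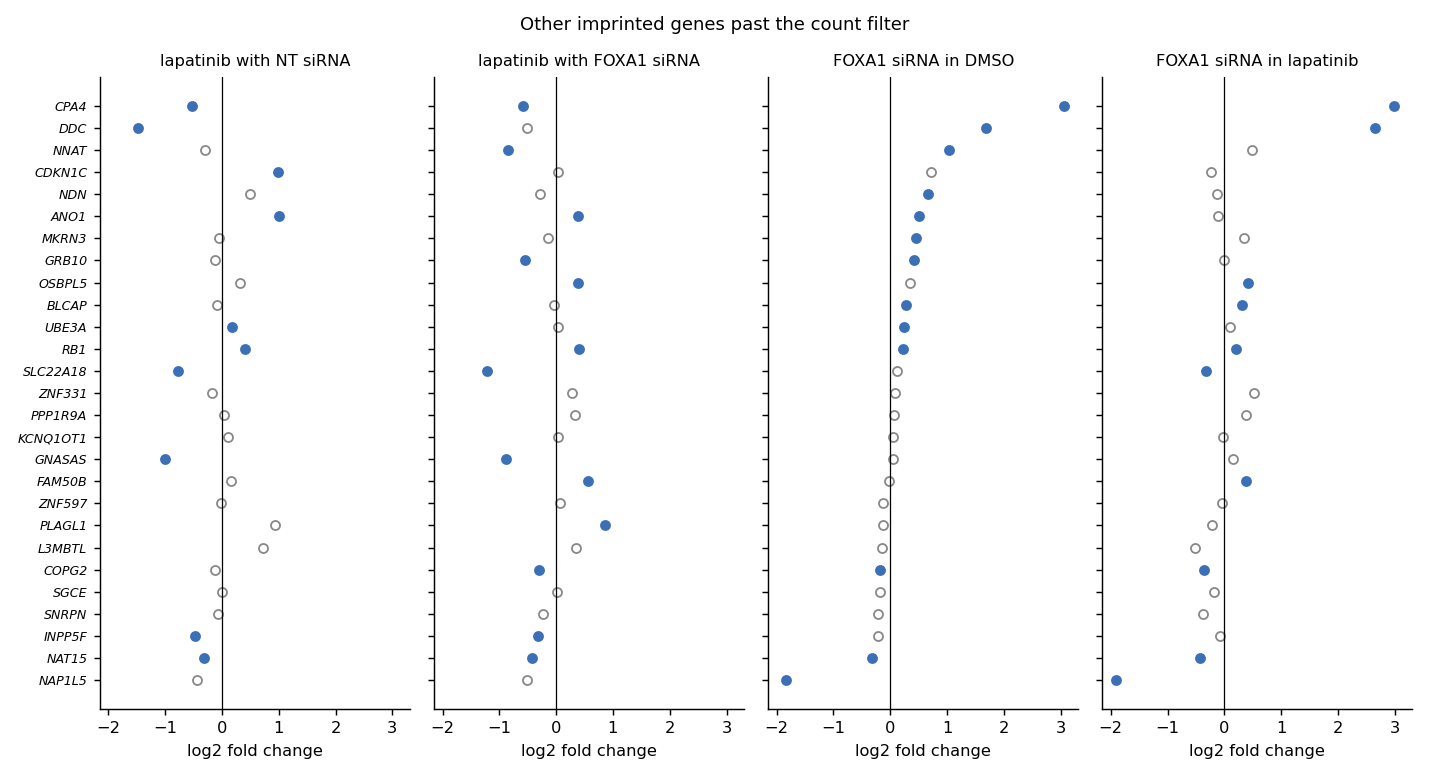
Log2 fold changes (horizontal axes) of the 27 tested genes among the 48 other imprinted genes in the 4 comparisons, ordered by the change after FOXA1 siRNA in DMSO. Filled blue circles passed an adjusted p of 0.05 and open gray circles did not. CPA4 and DDC stand at the top of both siRNA panels, and NAP1L5 at the bottom.

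The genes around H19 on 11p15 moved in both directions. Of 25 listed neighbors, 18 were tested, and FOXA1 siRNA in DMSO raised 4 and lowered 4 of them, or 22.2% each, near the 21.9% and 21.3% of all genes (median log2 fold change 0.16, beside -0.01 over all genes). With the replicate block 6 were raised and 4 lowered, and without replicate 2 in any group 7 and 4. MRPL23, a mitochondrial ribosomal protein gene whose middle is 17.1 kb from that of H19, was at -0.28 ± 0.06 (SE, adjusted p = 0.00614) and is named for its position. SYT8, a synaptotagmin gene 163.6 kb away on the same side, rose by 1.34 ± 0.12 (SE, adjusted p = 0.000119). CD81, a tetraspanin gene 388.6 kb away beyond IGF2, rose by 0.70 ± 0.05 (SE, adjusted p = 5.4e-05), and TOLLIP, an adaptor of innate signaling 706.2 kb away, fell by 0.87 (SE 0.07, adjusted p = 5.9e-05). In lapatinib the siRNA raised 5 and lowered 3 of the 18 (27.8% and 16.7%, beside 22.7% and 22.2% of all genes, median 0.13 beside -0.01), and with the replicate block 8 and 4.

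Lapatinib with NT siRNA raised 5 and lowered 6 of the 18 neighbors (27.8% and 33.3%, beside 30.5% and 29.2% of all genes, median -0.17 beside 0.03), and with FOXA1 siRNA raised 5 and lowered 5 (27.8% each, beside 29% and 29.1%, median -0.02 beside 0.01). With the replicate block both comparisons gave 6 higher and 6 lower. PHLDA2, 930.6 kb from H19, stood between SLC22A18, which fell as given above, and NAP1L4. NAP1L4, a nucleosome assembly protein gene, was at -0.29 ± 0.05 (SE, adjusted p = 0.00195) with NT siRNA and -0.37 ± 0.05 (SE, adjusted p = 0.000327) with FOXA1 siRNA. The next genes past NAP1L4 went the other way. CARS was at 0.42 ± 0.10 (SE, adjusted p = 0.00587) with NT siRNA and 0.15 ± 0.10 (SE, adjusted p = 0.223) with FOXA1 siRNA. OSBPL5 was at 0.32 ± 0.13 (SE, adjusted p = 0.0712) with NT siRNA and 0.39 ± 0.08 (SE, adjusted p = 0.00329) with FOXA1 siRNA. CDKN1C, the maternally expressed cell cycle inhibitor of the same domain, was at 11 to 37 counts and rose by 0.98 ± 0.36 (SE, adjusted p = 0.0444) with NT siRNA, a call made in 9 of the 15 alternative fits. It was lost by DESeq2 (adjusted p = 0.0908) and without NT DMSO replicate 1 or 3 or without any 1 of the NT lapatinib replicates (adjusted p = 0.0521 to 0.144). With FOXA1 siRNA it was at 0.03 ± 0.27 (SE, adjusted p = 0.928), and the difference between these 2 responses had an adjusted p of 0.244. NAP1L4, CARS, OSBPL5 and CDKN1C are named for their position and were picked after their values were seen. SLC22A18, CDKN1C, OSBPL5, KCNQ1 and INS belong to both lists.

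**Figure D4:**
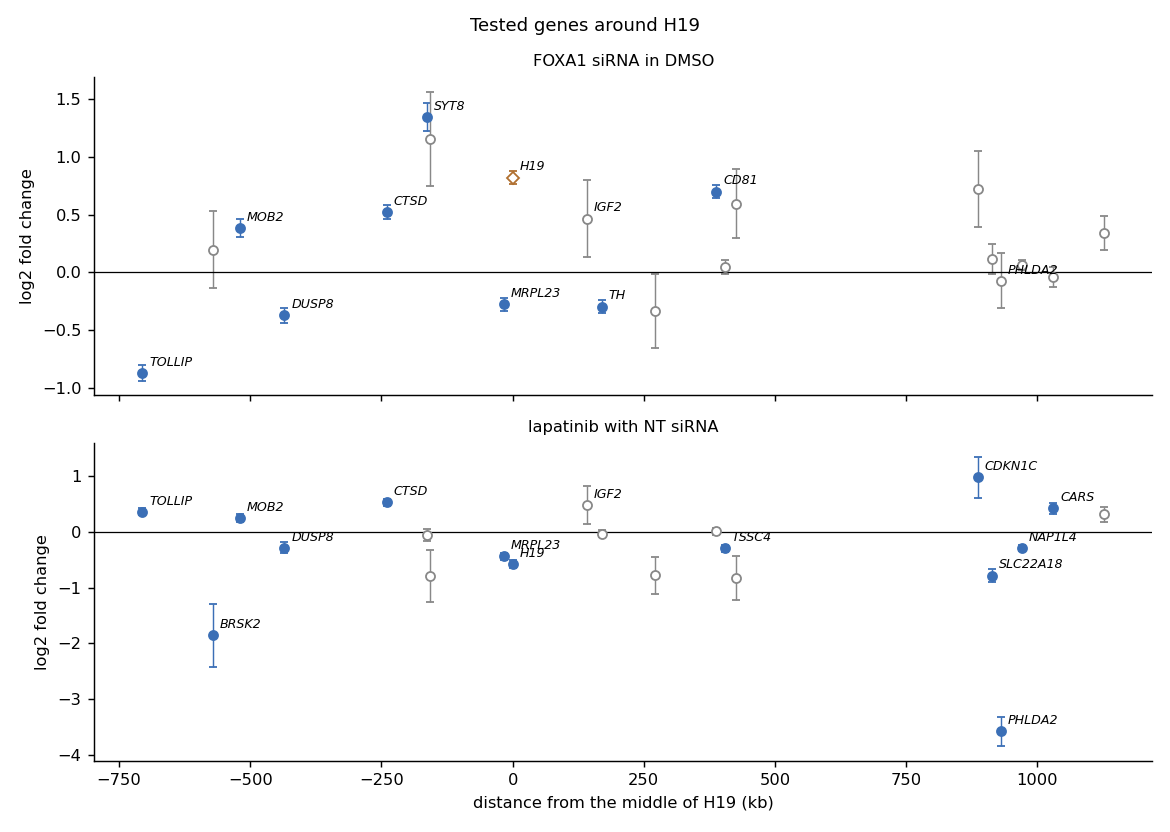
Log2 fold changes with SE bars (vertical axes) of the tested genes around H19 against the distance of their middles from that of H19 in kb, after FOXA1 siRNA in DMSO (top) and after lapatinib with NT siRNA (bottom). Filled blue circles passed an adjusted p of 0.05, open gray circles did not, and the open brown diamond is H19 where it was not tested. MRPL23, the nearest gene, lies below 0 in both panels, and PHLDA2 stands alone near -3.6 in the bottom panel.

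Of 16 factors that set, keep or remove methylation imprints, 13 or 14 were tested, and UHRF1, HELLS and DNMT1 among them fell with lapatinib. The list includes TET1, TET2 and TET3, which remove DNA methylation, so its counts mix factors of opposite action. With NT siRNA 2 rose and 6 fell of 13, or 15.4% and 46.2% beside 30.5% and 29.2% of all genes (median log2 fold change -0.20, beside 0.03), and with the replicate block 2 and 8. With FOXA1 siRNA 3 rose and 5 fell of 14 (21.4% and 35.7%, beside 29% and 29.1%, median -0.04 beside 0.01), and with the block 3 and 6. UHRF1, which brings DNMT1 to newly replicated DNA, averaged 1637 ± 220 (SD, n = 3) normalized counts with NT and DMSO and 121 ± 4.48 with NT and lapatinib, a log2 fold change of -3.74 ± 0.12 (SE, adjusted p = 1.27e-06). HELLS, a chromatin remodeler, and DNMT1, the maintenance methyltransferase, changed by -2.10 ± 0.16 and -1.21 ± 0.09 (log2 fold change ± SE, adjusted p = 1.37e-05 and 1.16e-05). CTCFL, the germ-line paralog of CTCF, changed by -0.62 ± 0.10 (SE, adjusted p = 0.000813). UHRF1, HELLS and DNMT1 are also known to be transcribed mainly in dividing cells. Cell division was not measured in these libraries, and the cause of these falls was not tested.

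CTCF itself was at 0.00 ± 0.06 (SE, adjusted p = 0.994) after lapatinib with NT siRNA and at -0.23 ± 0.05 (SE, adjusted p = 0.0112) after FOXA1 siRNA in DMSO, and is named because it binds between H19 and IGF2. FOXA1 siRNA in DMSO lowered 5 of the 13 factors and raised 0, or 38.5% and 0% beside 21.3% and 21.9% of all genes (median -0.21, beside -0.01), with 0 raised also by DESeq2 and at an unadjusted p under 0.05. With the replicate block it lowered 9, and without replicate 2 in any group 10. In lapatinib the siRNA raised 3 and lowered 5 of 14 (21.4% and 35.7%, beside 22.7% and 22.2%, median -0.24 beside -0.01), with the block 4 and 9. Methylation was not measured in these libraries.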

How the data were processed

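RNAseq libraries of SKBR-3 cells were analyzed in 4 groups of 3 replicates, with groups and replicate numbers taken from the labels. The authors deposited 1 table per library with an expected count (estimated reads per gene, not whole for every gene) and the TPM of 20531 genes, named by symbol and Entrez ID. The methods name STAR on hg38, Salmon and upper-quartile normalization, while the submitters' processing notes name RSEM, R 3.2.2, DESeq and DESeq2 1.12.3, and the deposited columns are those of RSEM. The labels give 48 h of siRNA before drug and the methods 24 h, and the labels name 2 library kits, so strand in the counting is not given in the sources used here. The TPM deposited by the authors, read only for levels per length, summed to between 896833 and 939340 per library.

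Expected counts, 87.8% to 88.5% of them whole, were rounded and tested with edgeR 4.0.16 in R 4.3.3 (TMM, glmQLFit, glmQLFTest, Benjamini-Hochberg over all genes tested). Each comparison of 2 groups used its own 6 samples and the genes that reached 10 counts in 1 or more of those libraries. The interaction used all 12. SEs came from dividing each log2 fold change by the root of its F statistic. The test was checked on simulated counts, drawn independently for each library with the same dispersion for every gene and no replicate effect. That check does not cover the shared deviations of same-numbered samples given below. The members and gene lists were chosen with earlier results of these data known. Named genes are the 8 members, per list the 4 genes with the largest absolute log2 fold change called after lapatinib with NT siRNA or after FOXA1 siRNA in DMSO with a mean of at least 100 normalized counts, and the 5 genes most correlated with H19. Comparisons that share a group are not independent.

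In all 18 pairs of same-numbered samples from 2 groups, the deviations from the group mean were correlated (mean r = 0.427, range 0.267 to 0.696, over 10812 genes). For different numbers the mean was -0.199. Because each group was centered on its own mean, this negative value follows from the positive one and is no separate baseline. The source of the numbers is not given, and fits with the replicate block are quoted where they change the call of a member or the printed count of a gene list. No 2 replicates matched within sampling noise (chi-square per degree of freedom 3.75 to 5.94 between replicates 1 and 3, 12.7 to 18.5 for pairs with replicate 2). Alternatives were RLE and upper-quartile scaling, DESeq2 1.42.0, no count filter, 10 counts required in each sample compared, one model of the 12 samples, H19 left out of library sizes, an adjusted p under 0.01, a log2 fold change of at least 1, and leaving out each sample. The alternative fits, without the stricter limits on p and fold, were also applied to the gene lists, and replicate 2 was left out of every group, both as choices made after seeing the data. Gene positions are from GENCODE 44, distances between genes and all sequences from RefSeq, and plots from matplotlib 3.10.9.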

Additional observations from a re-analysis of the deposited data

Results flagged for a closer look

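The difference between the lapatinib responses with NT and FOXA1 siRNA was tested for 6 members, without H19. With all libraries and no block MEST was the only one called. Its interaction was 0.2978 on the log2 scale (SE 0.06, adjusted p = 0.0150 by edgeR, 3 replicates in each of 4 groups). Lapatinib changed MEST by -0.50 with NT siRNA and by -0.21 with FOXA1 siRNA, and the same-numbered libraries fell in 3 of 3 pairs with each siRNA. The FOXA1 siRNA groups started from 7081 ± 226 (SD, n = 3) normalized counts in DMSO against 8836 ± 370 with NT siRNA, and both ended near the same level in lapatinib, at 6077 ± 132 and 6170 ± 205. The cause was not tested. With 3 samples a group, single genes were not tested for outlying samples.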

How the results depend on the processing

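Of 556 recomputed log2 fold changes of the members, 505 kept their direction and their side of the threshold. The falls of H19, PHLDA2 and MEST with lapatinib, those of PEG10 with FOXA1 siRNA, and the MEST interaction were called in every alternative fit at the same threshold. The replicate block, which pairs same-numbered samples, called 1 member higher after lapatinib with NT siRNA, 2 higher after lapatinib with FOXA1 siRNA and 2 with a positive interaction. It changed no other call of a member than those given with GNAS, PEG10 and IGF2R. With all 12 samples in one model GNAS also passed in the FOXA1 siRNA comparison in DMSO (-0.15, adjusted p = 0.0324). At an adjusted p under 0.01 the counts became 0 higher after lapatinib with FOXA1 siRNA, 0 higher after FOXA1 siRNA in DMSO, 1 lower after FOXA1 siRNA in lapatinib and 0 positive interactions. With a log2 fold change of at least 1, the counts were 1 lower after lapatinib with each siRNA, 1 lower after FOXA1 siRNA in each drug condition, and 0 in the higher and positive directions. These limits leave fewer genes by construction. As a share of TPM, H19 held 1.123%, 0.7393%, 1.958% and 1.527% in NT with DMSO, NT with lapatinib, FOXA1 siRNA with DMSO and FOXA1 siRNA with lapatinib.

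Leaving out each sample in turn gave 0 to 1 members higher after lapatinib with NT siRNA (1 without NT DMSO replicate 2, where GNAS passed), 0 to 1 after lapatinib with FOXA1 siRNA and 0 to 1 after FOXA1 siRNA in DMSO, and 1 to 2 lower after FOXA1 siRNA in lapatinib. GNAS also passed after FOXA1 siRNA in DMSO without FOXA1 siRNA replicate 2 (-0.19, adjusted p = 0.0154). Signs turned only for values that missed the test with all samples and no block: after lapatinib with NT siRNA, IGF2R (-0.0032 to 0.0833) and PEG10 (-0.3425 to 0.0034), and for PHLDA2 after FOXA1 siRNA in DMSO (-0.3213 to 0.1980) and in lapatinib (-0.3052 to 0.0867). Without replicate 2 in any group 1 member (GNAS) was called higher after lapatinib with NT siRNA, IGF2R was at -0.0059 there, PHLDA2 was at 0.0356 after FOXA1 siRNA in lapatinib, and the interactions of IGF2 and PHLDA2 were 0.3998 and 0.1022. Left out 1 at a time, interactions ranged from -0.0621 to 0.2471 for IGF2, -0.2787 to 0.2254 for PHLDA2, -0.1834 to 0.1392 for PEG10 and -0.0601 to 0.0331 for GNAS. The cause was not tested.

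Over all genes, a log2 fold change of at least 1 left 910 higher and 978 lower after lapatinib with NT siRNA, 678 and 704 with FOXA1 siRNA, 556 and 380 after FOXA1 siRNA in DMSO, 619 and 535 in lapatinib, and 73 positive and 72 negative interactions. An adjusted p under 0.01 left 1969 and 1830, 2061 and 1987, and 156 and 148 for the siRNA comparisons and the interaction. The block gave 1561 and 1292 interactions, leaving out replicate 2 in every group 1426 and 1092, and leaving out single samples 300 to 782 positive and 242 to 583 negative, against 559 and 449. Depth limits IGF2 and PEG3: PEG3 was not tested, and changes of the size seen for IGF2 were not detectable.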
